A study of Mus musculus with 3 samples.

Results

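The 9 genes described here encode subunits of the BAF chromatin remodeller of embryonic stem cells (esBAF): Smarca4, Arid1a, Smarcc1, Smarcc2, Smarcd1, Smarcb1, Smarce1, Actl6a and Dpf2. They were chosen by name, and all rows of their transcripts were kept, 11 transcripts among the 15021 in the tables. All 9 genes were found among the 13224 named genes. The data are bisulfite sequencing of messenger RNA from mouse embryonic stem cells of J1 background in which Tet1, Tet2 and Tet3 are deleted on both alleles (Tet1-/-,Tet2-/-,Tet3-/-), in 3 libraries of 1 group. The cells had been grown with LIF on mouse embryonic fibroblast feeders, which were then depleted by letting them settle on dishes. No library of another genotype was analysed here, so every comparison is between cytosines or transcripts of the same cells. Separate cultures or clones are not stated for the 3 samples, so p-values that use their spread may measure technical variation only.

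BAF complexes are the mammalian relatives of the yeast SWI/SNF complex. An ATPase subunit pulls DNA around the nucleosome, and the other subunits assemble the complex and bind DNA, histones or transcription factors. In mouse embryonic stem cells the complex has a particular composition, with the ATPase Brg1 (Smarca4) in place of its relative Brm (Smarca2), with Arid1a, and with more Smarcc1 than Smarcc2, and it is known for its part in self-renewal and pluripotency. Bisulfite turns unmodified cytosine into uracil, while 5-methylcytosine and 5-hydroxymethylcytosine remain cytosine. The unconverted share of the reads at a cytosine therefore sums both modifications and failed conversion.

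The background, taken as the unconverted share of all reads of a library, was 1.53%, 1.45% and 1.41% in replicates 1, 2 and 3. Total coverage ran from 139884444 to 151362866, a sum in which every cytosine under a read adds 1. The 10 stem cell markers were all listed and took 0.507% to 0.530% of the coverage, although Nanog and Esrrb had at most 28 and 19 listed cytosines. Of 10 fibroblast markers, 7 were listed at 0.0275% to 0.0445% of the coverage and Postn, Lum and Dcn were absent. The fibroblast share was highest in replicate 1 and lowest in replicate 3, the same order as the background, and its part in the results was not tested. The members took 0.179% ± 0.000977 of the coverage (SD, n = 3).

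Printed here are stretches of the start of 2 member transcripts at which nearly all cytosines were measured, so that the cytosines behind the values can be seen. The sequences are RefSeq's for build GRCm38.p6, and capitals mark the cytosines listed in the tables. The first runs from base 1 of Smarcc1 (NM_009211.2), at chr9:110132024-110132053 on the plus strand, and the other from base 11 of Smarcd1 (NM_031842.2), at chr15:99702297-99702326 on the plus strand.
Smarcc1: ggaggtggCatCtgCgCgCgCgCgCgCggg
Smarcd1: CagCtgCagCggCggCtCCgggaagatggC
In Smarcc1 all 15 cytosines of the first 50 bases were listed, and in Smarcd1 11 of 14. Over all genes, 2534 of 3614 transcripts with at least 8 listed cytosines in the first 50 bases had every one of them at a C of a RefSeq start sequence, and for these transcripts the positions count from 1 at that start. The other transcripts checked, Arid1a among them, did not match in this way, so the offset of the Arid1a positions from a RefSeq start was not established here. In the printed Smarcc1 stretch, 21 of 759 read counts over 9 cytosines were unconverted, or 2.77% (exact 95% interval 1.72% to 4.20%). Replicates 1, 2 and 3 had 2.69%, 2.76% and 2.85%. Here and below, read counts over several cytosines add 1 for each cytosine under a read. All 21 lay at the 7 cytosines of the CG repeat, which had 676 read counts. The other 2 cytosines had 0 of 83 (exact 95% upper limit 4.35%). The Smarcd1 stretch had 8 of 323 read counts unconverted, or 2.48% (exact 95% interval 1.08% to 4.82%). There, replicates 1, 2 and 3 had 2.17%, 1.37% and 4.71%. Replicate 2 lay below its background there, and replicate 3 was the highest. At the 4 Smarcd1 cytosines followed by G, 3 of 151 read counts were unconverted (1.99%), and at the other 5, 5 of 172 (2.91%). This was the opposite order to that of Smarcc1, and no test was made of either. None of the 8 testable cytosines of the Smarcc1 stretch or the 7 of the Smarcd1 stretch passed the exact binomial test described next, with 1 and 2 at an unadjusted p below 0.05, and none passed with a beta-binomial test either. Neighbouring cytosines share reads, so these intervals cover counting error only and are too narrow.

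How much of each subunit's mRNA could be read differed widely. Smarce1, whose product carries a DNA-binding HMG domain, had 94.1 ± 7.24 reads per listed cytosine, and Actl6a, an actin-related protein of the complex, had 88.3 ± 4.14 (SD, n = 3 for each). Smarcc1, a scaffold subunit, had 44.7 ± 4.54, Arid1a, the largest of these subunits and a DNA-binding one, 37.8 ± 3.08, and Smarcd1, which links the complex to transcription factors, 35.4 ± 1.98. The values of Smarce1 and Actl6a overlapped between libraries, as did those of Arid1a and Smarcd1. By the median over cytosines, with the 3 libraries summed, the order of Smarce1 and Actl6a was reversed. Actl6a had 144 reads, Smarce1 82.5, Smarcc1 61, Arid1a 54 and Smarcd1 45. All 5 lay above the median gene, at 10.2 ± 0.158 reads. These 5 mRNAs were listed along nearly their whole length, from 429 ± 4.04 cytosines in Actl6a to 2142 ± 22.2 in Arid1a, whose listed cytosines ran from position 5 to 7994.

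The other 4 subunits were seen only in short windows. Smarca4, the ATPase, had 58, 41 and 46 listed cytosines in replicates 1, 2 and 3, within positions 4265 to 4421 of NM_001174078.1 and 4532 to 4623 of NM_001174079.1. Smarcc2, the paralogue of Smarcc1, had 76, 53 and 37 between positions 3321 and 3678 of NM_001114097.1. Smarcb1, a core subunit that contacts the nucleosome, had 41, 40 and 23 in 2 transcripts within positions 365 to 498, and Dpf2, which reads histone tails with paired PHD fingers, had 25, 29 and 24 between 653 and 771 of NM_011262.5. Mean depth at these cytosines was 14.6 ± 0.275 reads in Smarca4, 10.3 ± 3.25 in Dpf2, 7.20 ± 2.58 in Smarcb1 and 5.38 ± 0.620 in Smarcc2 (SD, n = 3). Smarca4 lay at 14.4, 14.9 and 14.4 reads, while Smarcb1 had 10.1 in replicate 1 against 5.33 and 6.13 in the other libraries.

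**Figure D1:**
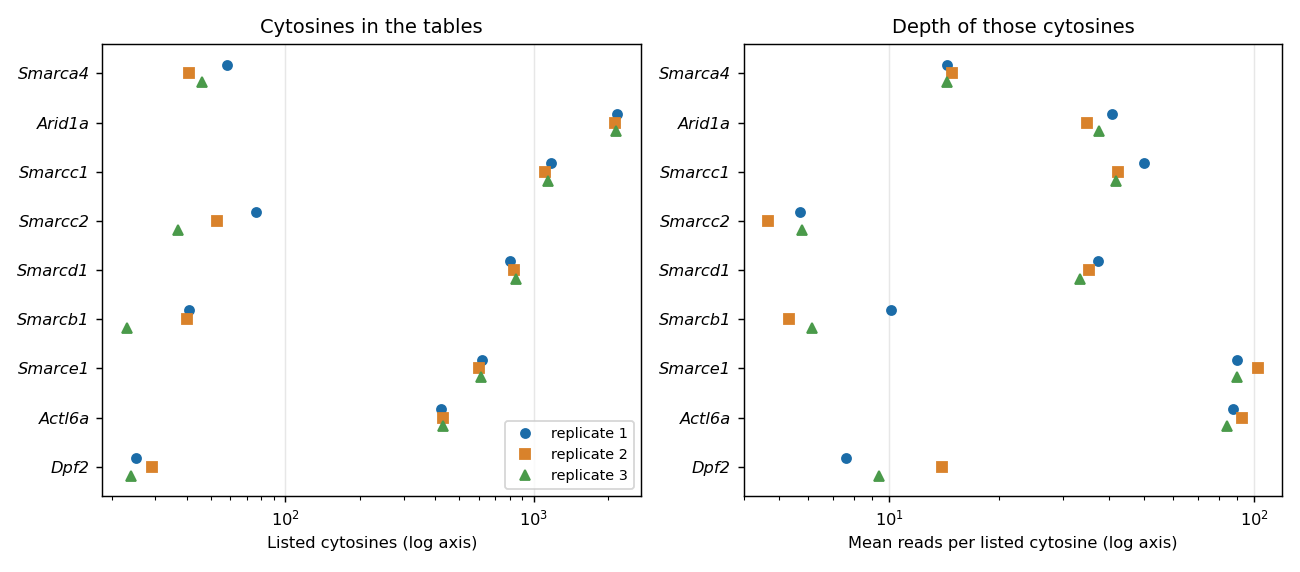
Number of listed cytosines (left) and mean reads per listed cytosine (right) for each subunit, both on log axes, with 1 point per replicate. Arid1a, Smarcc1, Smarcd1, Smarce1 and Actl6a have over 400 listed cytosines in each replicate, and Smarca4, Smarcc2, Smarcb1 and Dpf2 have 23 to 76.

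All 4 genes with short windows have several protein-coding models in RefSeq: 4 for Smarca4 and Smarcc2 and 2 for Smarcb1 and Dpf2. Smarcc1, Smarcd1, Smarce1 and Actl6a have 1 model each, and Arid1a, with 2, is the exception among the well-covered subunits. Over all genes the median number of listed cytosines was 291 in the 7757 genes with 1 model and 101 in the 5467 with several. The RefSeq table is of a later build than the mm9 of the submitters' processing notes, and how reads common to several models were handled is not given in the sources used here. The low values of Smarca4, Smarcc2, Smarcb1 and Dpf2 are therefore no measure of their expression, and the mRNA levels of Smarcc1 and Smarcc2 cannot be compared. The part of the model number in these values was not tested.

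Along the 5 well-covered mRNAs the depth was uneven in the same way in every library. Across the cytosines of a transcript, Pearson's r between the log2 depths of 2 libraries was 0.949 to 0.964 in Smarce1 (642 cytosines) and 0.852 to 0.889 in Smarcd1 (873 cytosines), the highest and the lowest lower bounds of the 5; neighbouring cytosines share reads and are not independent. Smarce1 peaked at position 1307 with 2000, 2309 and 2072 reads in replicates 1, 2 and 3, 77.3 times its median over cytosines. Smarcc1 peaked at position 1652 with 1603, 1584 and 1471 reads, 76.4 times its median. The peaks were lower in Arid1a (750, 712 and 726 reads at position 5493), Actl6a (521, 597 and 520 at 322) and Smarcd1 (347, 357 and 303 at 1198). Depth thus varied more along a transcript than between the libraries, and the ability to see a modified cytosine varied with it.

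**Figure D2:**
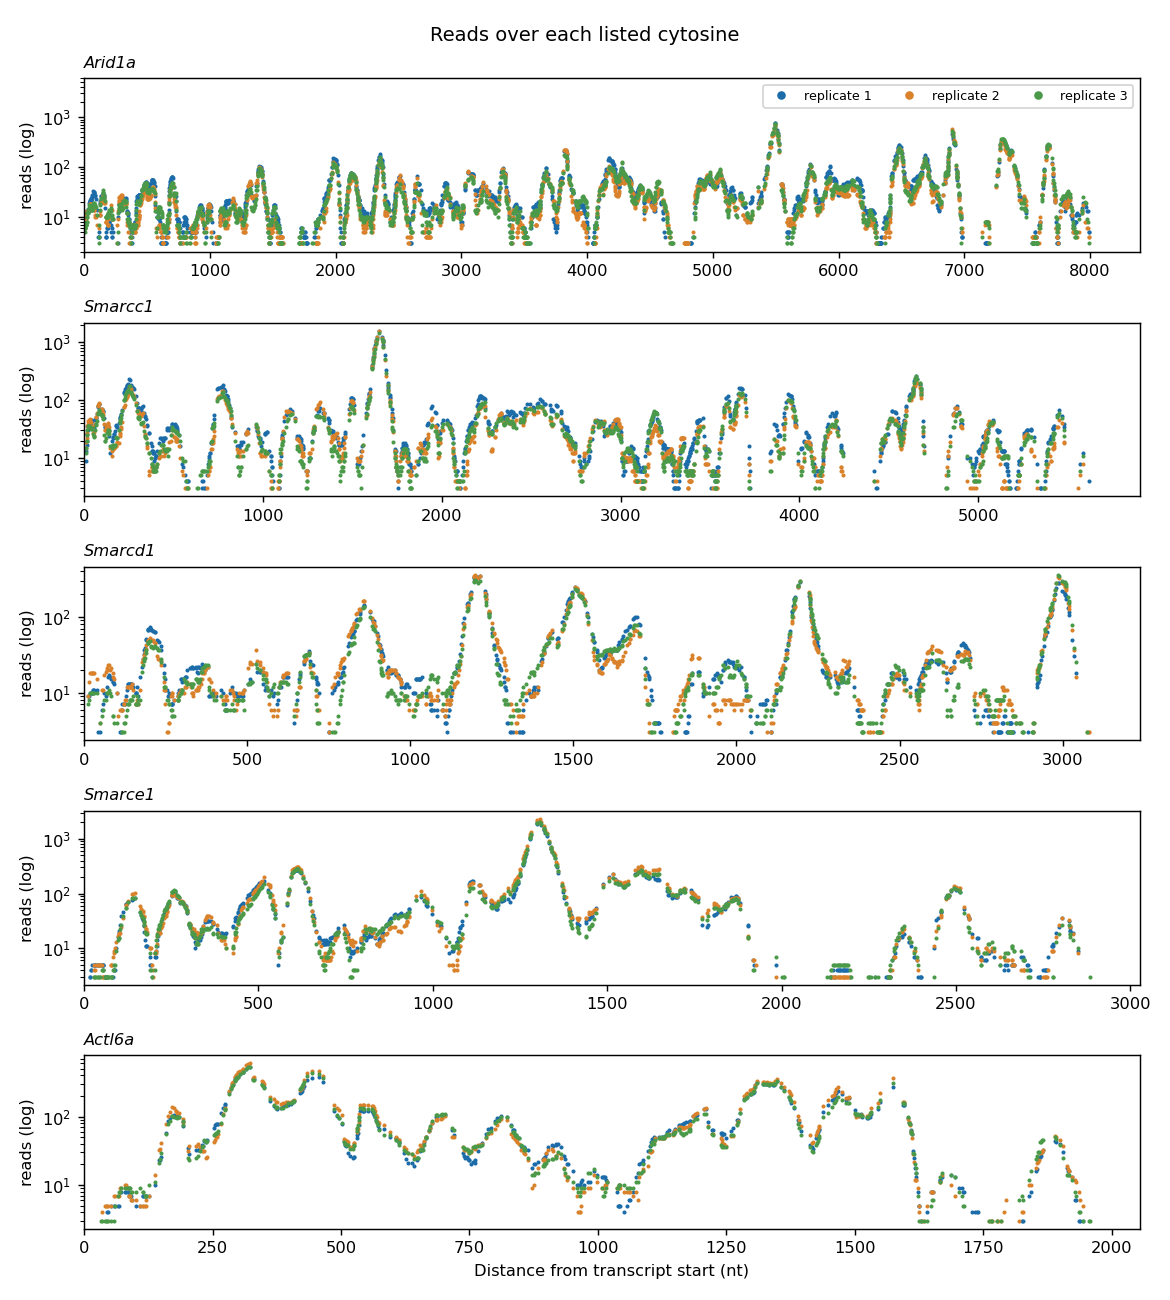
Reads over each listed cytosine (log axis) against its listed position in the transcript, for the 5 well-covered subunits, coloured by replicate. The axis is labelled as distance from the transcript start, which was not established for Arid1a. The 3 replicates trace the same peaks, with Smarce1 reaching 2309 reads and Smarcc1 reaching 1603.

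Which cytosines of these mRNAs remained unconverted above the background was asked next. A cytosine was testable with at least 10 reads in each of the 3 libraries, which left 3446 of the 5622 listed member cytosines in 7 genes: 1402 in Arid1a, 752 in Smarcc1, 464 in Smarcd1, 452 in Smarce1, 346 in Actl6a, 22 in Smarca4 and 8 in Dpf2. Smarcc2 and Smarcb1 had none. Over all listed cytosines, Smarcc2 had 5 of 434, 3 of 247 and 3 of 213 read counts unconverted in replicates 1, 2 and 3. Smarcb1 had 4 of 416, 2 of 213 and 1 of 141. A one-sided exact binomial test asked, library by library, whether more reads were unconverted than the background gives. Fisher's method joined the 3 p-values into one, and the Benjamini-Hochberg adjustment ran over the 1639820 testable cytosines of all genes. To be a candidate, a cytosine needed an adjusted p below 0.05, a mean share of 10% or more, and all 3 libraries above their background. The test takes each read as independent, and no spread between libraries enters it.

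Candidates were rare in the esBAF mRNAs, as they were over all genes. Of the 3446, 1 was a candidate, or 0.0290%, against 0.0473% of all testable cytosines. An adjusted p below 0.05 at any level was found at 14, or 0.406%, against 0.499% of all, and an unadjusted p below 0.05 at 137, or 3.98%, against 3.32%. These shares lie near those of all cytosines. The calls followed depth: none was among the 775 cytosines with a mean of 10 to below 20 reads, where 0.0501% of all were called, 3 among 1437 at 20 to below 50 (0.155% of all), 2 among 670 at 50 to below 100 (0.441% of all) and 9 among 564 at 100 or more (2.41% of all). None of the 775 was called by the beta-binomial test or with the highest p-value either, and 16 had an unadjusted p below 0.05 in the exact binomial test. The 14 were in 4 genes: Arid1a held 5, Smarce1 4, Actl6a 3 and Smarcc1 2. Smarcd1, Smarca4 and Dpf2 had 0 among their 464, 22 and 8 testable cytosines in the exact binomial test, with 12, 1 and 0 at an unadjusted p below 0.05, and the beta-binomial test also gave 0 in each.

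The depth set what could be called. A share of 20% in each library, rounded up to whole reads, would have met the candidate rule at all 3446, and a share of 10% at 2857, or 82.9%. These counts take the reads to show exactly that share in each library; sampling of the reads would lower them, and the chance of detecting such a site was not computed. No testable member cytosine reached a mean of 20%, and 2 reached 10%. No unconverted read was seen in any library at 885 cytosines, or 25.7%, against 28.6% of all testable cytosines, and 114 (3.31%) had a mean share of 5% to below 10%, against 3.03%. The testable cytosines had a median depth of 64 reads per library in Actl6a and 57 in Smarce1. It was 35 in Smarcc1, 33 in Arid1a and 28 in Smarcd1. Within a library of these depths, 0 unconverted reads allow shares of up to 4.69%, 5.26%, 8.57%, 9.09% and 10.7% (3 counts of its reads). For 0 unconverted reads in all 3 libraries together the limits are lower, and they were not computed. Only counting error enters these limits, because copies made by PCR cannot be told from separate molecules. They do not reach the parts of Smarca4, Smarcc2, Smarcb1 and Dpf2 outside the listed windows, which were not analysed here.

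**Figure D3:**
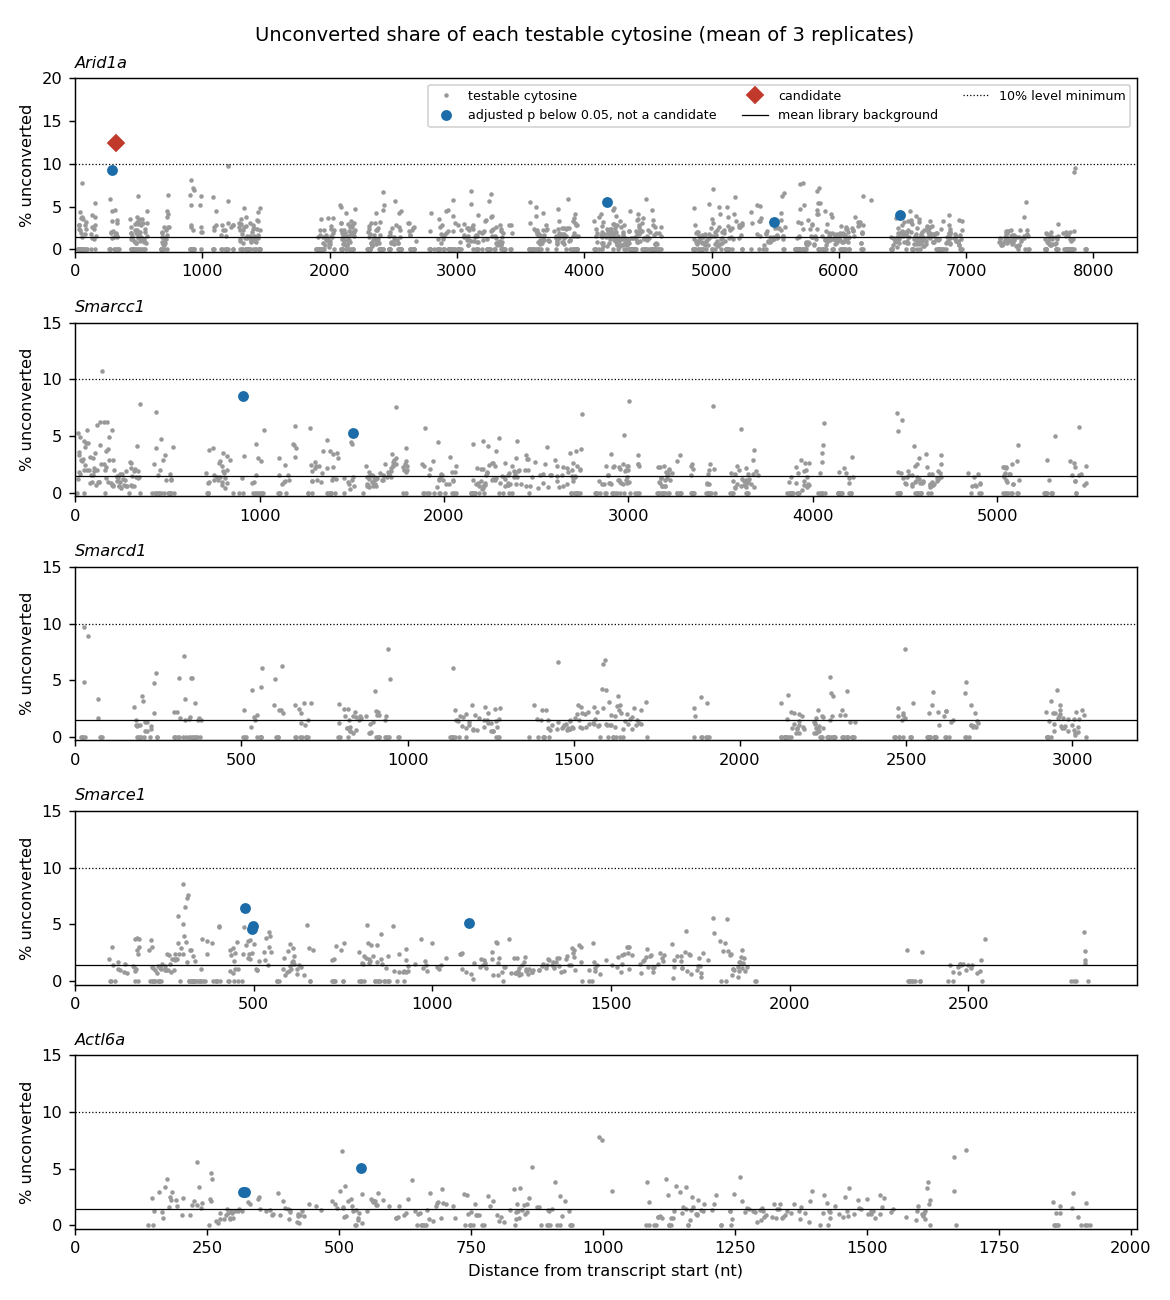
Mean unconverted share over the 3 replicates at each testable cytosine, in percent of reads, against its listed position in the transcript, for the 5 well-covered subunits. The axis is labelled as distance from the transcript start, which was not established for Arid1a. Blue points had an adjusted p below 0.05, the red diamond is the candidate of Arid1a at 12.4%, the solid line is the mean background of 1.46% and the dotted line the level minimum of 10%.

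The 1 candidate was position 318 of Arid1a (NM_001080819.1). It was unconverted in 3 of 22, 2 of 20 and 3 of 22 reads in replicates 1, 2 and 3, or 13.6%, 10.0% and 13.6%. All 3 libraries lay above the background, and their mean was 12.4% ± 2.10 (SD, n = 3; adjusted p = 0.0166, exact binomial tests combined by Fisher's method). Pooled over libraries, 8 of 64 reads were unconverted, or 12.5% (exact 95% interval 5.55% to 23.2%), so a share below the level minimum of 10% is within the counting error. The 7 testable cytosines within 10 nt had 1.81% ± 0.617. The call was lost in 3 of the alternative tests (the highest of the 3 p-values, the beta-binomial and a background raised 1.5 times) and without any 1 of the 3 libraries, where the site no longer passed.

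Position 292 of Arid1a, close to the candidate, had 0 of 20, 6 of 27 and 1 of 18 reads unconverted in replicates 1, 2 and 3. Its mean of 9.26% ± 11.6 (SD, n = 3; adjusted p = 0.0156, exact binomial tests combined) came nearly all from replicate 2, while replicate 1 had none. Position 912 of Smarcc1 was likewise carried by replicate 1, with 6 of 27 reads against 1 of 29 and 0 of 16 in the other libraries (adjusted p = 0.0262, same exact tests). At both sites the spread between libraries exceeded the mean.

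The deepest of the 14 was position 5491 of Arid1a, 2 nt from the depth peak of the transcript. It was unconverted in 25 of 752, 26 of 705 and 19 of 729 reads, or 3.32%, 3.69% and 2.61% in replicates 1, 2 and 3. All 3 libraries lay above the background, and the mean was 3.21% ± 0.550 (SD, n = 3; adjusted p = 1.4e-05, exact binomial tests combined). This was the smallest adjusted p among the members. Positions 319 and 322 of Actl6a were alike in depth and level. Position 319 had 18 of 525, 16 of 588 and 14 of 520 reads unconverted, a mean of 2.95% ± 0.417 (adjusted p = 0.0127, exact tests combined), and position 322 had 18 of 521, 19 of 597 and 12 of 520, a mean of 2.98% ± 0.599 (adjusted p = 0.0064, exact tests combined). Being 3 nt apart, they share most of their reads and are not separate evidence.

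Arid1a had a further pair of such cytosines. Position 4177 had 9 of 155, 9 of 104 and 2 of 101 reads unconverted, a mean of 5.48% ± 3.35, and position 6483 had 10 of 274, 14 of 236 and 6 of 240, a mean of 4.03% ± 1.75 (SD, n = 3). Both were above the background in all 3 libraries and lowest in replicate 3.

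In Smarce1 3 of the 4 cytosines lay within positions 477 to 498. Position 477 had 6 of 97, 8 of 81 and 2 of 62 reads unconverted, or 6.19%, 9.88% and 3.23%, position 495 had 8 of 138, 6 of 119 and 3 of 97, and position 498 had 13 of 146, 6 of 129 and 1 of 106. Replicate 3 was the lowest at all 3 positions, and at 498 it lay below the background. The cytosines within 10 nt had 3.16% ± 1.25 around 477, 3.01% ± 0.669 around 495 and 2.47% ± 0.315 around 498 (SD, n = 3). Positions 495 and 498 are neighbours of each other and share most of their reads, so each of these last 2 values includes the other called cytosine. Position 477 lies within the 100 bp read length of both and may share reads with them. The fourth, position 1103, had 5 of 151, 8 of 138 and 7 of 111 reads unconverted, a mean of 5.14% ± 1.60 (adjusted p = 0.00441, exact binomial tests combined), and its neighbours within 10 nt stood at 0.462% ± 0.106.

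The last 2 were Actl6a position 542, with 1 of 122, 12 of 145 and 8 of 132 reads (5.05% ± 3.83), and Smarcc1 position 1505, with 4 of 104, 2 of 91 and 7 of 71 (5.30% ± 4.03; SD, n = 3). In Actl6a replicate 1 lay below the background, and in Smarcc1 replicate 3 stood apart from the others. Of the 14 cytosines, 10 were above the background in all 3 libraries, and 3 had an unadjusted p below 0.05 in each (one-sided exact binomial test). Among all 3446, 5 had an unadjusted p below 0.05 in each library, or 0.145%, against 0.286% of all testable cytosines. In the 3 subunits without such a cytosine, the cytosines of smallest combined p were Smarcd1 position 1452 with 2 of 52, 4 of 45 and 3 of 42 reads, Smarca4 position 4355 with 0 of 20, 3 of 20 and 2 of 16, and Dpf2 position 711 with 0 of 11, 1 of 20 and 1 of 11.

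**Figure D4:**
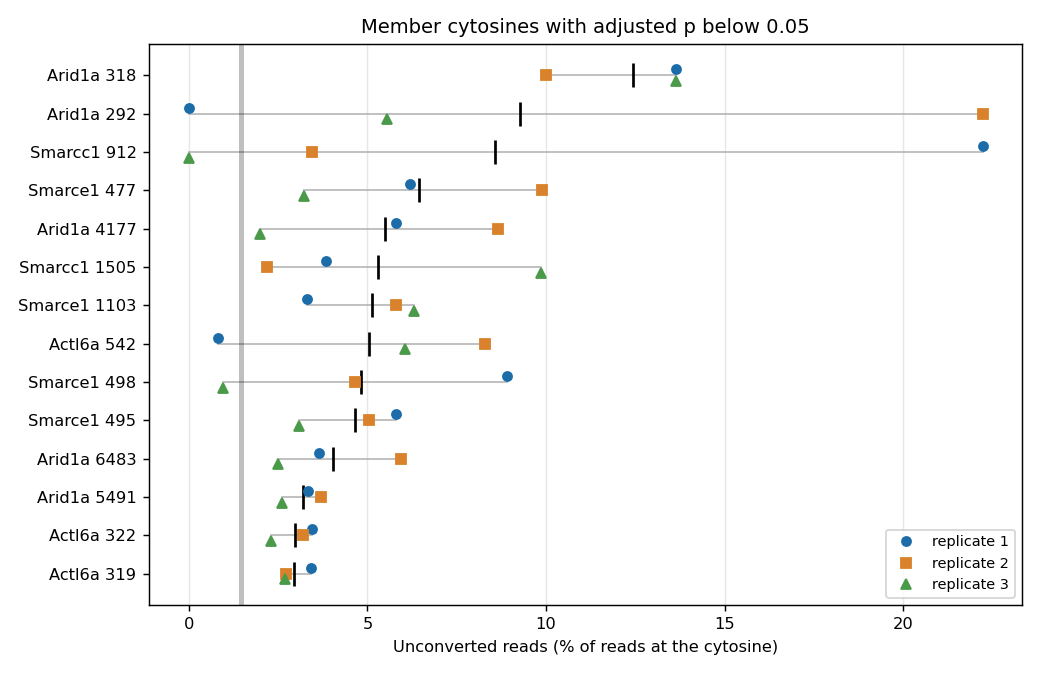
Unconverted share in each replicate (coloured symbols) and its mean (black tick) at the 14 member cytosines with an adjusted p below 0.05, in percent of reads, with the gene and position on the vertical axis. The grey band spans the backgrounds of the 3 libraries, and the replicates range from 0% to 22.2% at Arid1a 292 and at Smarcc1 912.

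The 14 calls rest on the error model. A beta-binomial test, which allows cytosines to vary beyond counting error, left 3 of them (Arid1a 4177, Smarce1 477 and Actl6a 542). It called 0.159% of all testable cytosines. Each of these 3 had a library that did not pass the one-sided exact binomial test. These were replicate 3 at Arid1a 4177 (unadjusted p = 0.416) and Smarce1 477 (0.217), and replicate 1 at Actl6a 542 (0.848). The 3 cytosines with an unadjusted p below 0.05 in every library, Arid1a 318, Arid1a 5491 and Actl6a 319, were lost in the beta-binomial test. The highest of the 3 p-values left 0 and called 0.0403% of all. The spacing of listed cytosines that CTCCA, the motif of the mRNA methyltransferase NSUN6, requires was found at 0 of the 14 and at 4.50% of the testable member cytosines. For CNGGG, linked to the methyltransferase NSUN2, 7 of the 14 and 42.3% of the testable member cytosines had a compatible spacing. Many other sequences have these spacings, and the sequence around the sites was not used here.

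Over whole mRNAs the unconverted share stayed close to the background. Pooled over the members it was 1.55%, 1.44% and 1.36% in replicates 1, 2 and 3, a mean of 1.45% ± 0.0962, and 1.46% ± 0.0638 over all genes (SD, n = 3). By gene the mean ran from 1.29% ± 0.153 in Smarcd1 over 1.42% ± 0.114 in Smarcc1, 1.43% ± 0.0872 in Actl6a, 1.48% ± 0.0856 in Arid1a and 1.53% ± 0.106 in Smarce1 to 1.73% ± 0.159 in Smarca4, whose value rests on 22 cytosines. Neighbours in this order differed by less than the SD of either, apart from Smarcd1 beside Smarcc1 and Smarce1 beside Smarca4. Dpf2, with 8 testable cytosines, had 0.943%, 1.84% and 3.00%.

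Each gene was set against the library background with limma, on log2 of the gene's unconverted share relative to the background with a pseudocount of 0.5 reads, over the 7405 genes with at least 20 testable cytosines. Of the 6 members tested, 1 was lower and 0 were higher, where 7.43% of all genes were lower and 6.79% higher. The 1 was Smarcd1, with 390 of 26694, 309 of 26353 and 312 of 25347 read counts unconverted, or 1.46%, 1.17% and 1.23%. It lay below the background in all 3 libraries, by -0.19 ± 0.04 (log2 ± SE, adjusted p = 0.00416, limma). The call was lost without replicate 2, where the log2 ratio was -0.12 (adjusted p = 0.155, limma). Over all genes, 350 of 7601 were lower without replicate 2, against 550 of 7405 with all 3 libraries. The part of the smaller number of libraries in the loss of Smarcd1 was not tested. Smarce1 was above the background in all 3 libraries but did not pass the test (log2 ratio 0.06, 95% interval 0.00 to 0.12; adjusted p = 0.172, limma). The median log2 ratio was -0.01 in the 6 members and -0.01 in all genes.

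The start and the end of the 5 well-covered mRNAs were then compared, a comparison made after these values were seen. In limma, Smarcc1 and Smarce1 passed with a higher unconverted share in the first part than in the last, and the other 3 did not pass. These p-values come from the values that prompted the comparison and are a description only. Each transcript was cut into 3 parts of equal length up to its last listed position. In all 5 genes and all 3 libraries the first part lay above the last. In Smarce1 the first part had 1.96%, 1.86% and 1.58% and the last part 1.42%, 1.19% and 0.800% in replicates 1, 2 and 3, and in Smarcc1 the first part had 1.61%, 1.52% and 1.37% and the last 1.27%, 1.06% and 1.17%. Actl6a went from 1.56% ± 0.0940 to 1.31% ± 0.167, Smarcd1 from 1.37% ± 0.190 to 1.12% ± 0.190, and Arid1a from 1.56% ± 0.0605 to 1.46% ± 0.104 (SD, n = 3). In Smarcd1 the middle part, at 1.41% ± 0.109, was not below the first.

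The same ratio was fitted with limma over the 4067 transcripts with at least 20 testable cytosines in both end parts. The first part was higher in 7.87% of them and the last in 2.41%, with a median log2 ratio of 0.07. The first part lay above the last in all 3 libraries in 28.7% of these transcripts. This order had been seen in the 5 members before the comparison was made. Their count and their p-values below are therefore a description only. Smarcc1 (log2 ratio 0.35 ± 0.10 SE, adjusted p = 0.0163) and Smarce1 (0.66 ± 0.20, adjusted p = 0.0291) passed the limma test. Actl6a (0.26 ± 0.09, adjusted p = 0.0605), Smarcd1 (0.30 ± 0.12, adjusted p = 0.123) and Arid1a (0.10 ± 0.07, adjusted p = 0.421) did not pass in limma. Neither call held throughout: without replicate 1 no member passed (adjusted p = 0.104 for Smarcc1 and 0.109 for Smarce1, limma), Smarce1 was also lost without replicate 2 or 3, Smarcc1 also without replicate 2, where Actl6a passed instead (log2 ratio 0.36, adjusted p = 0.0207, limma), and with 2 parts in place of 3 the ratio of Smarce1 turned to -0.21. Without the cytosines of adjusted p below 0.05 Smarce1 had a log2 ratio of 0.59 and did not pass (adjusted p = 0.0609, limma). The last part of Smarce1 held 37 testable cytosines. Listed cytosines were denser in the first part than in the last in Smarce1 (32.4 against 14.0 per 100 nt), Arid1a (33.7 against 23.6), Smarcc1 (22.0 against 15.2) and Actl6a (23.1 against 19.2), but not in Smarcd1 (27.7 against 29.9); the part of cytosine density in the result was not tested.

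**Figure D5:**
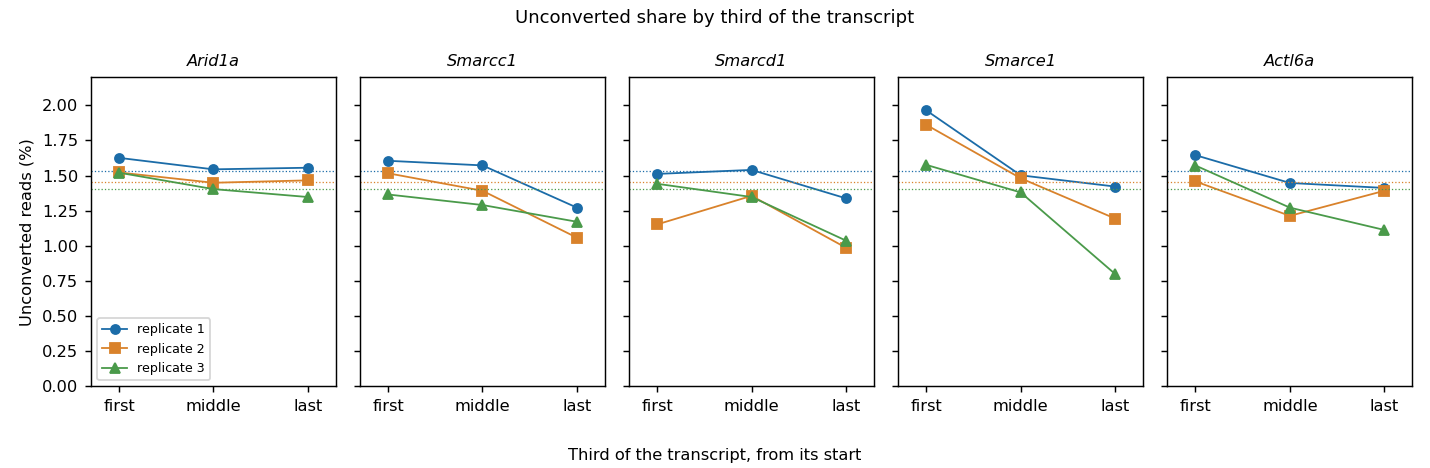
Unconverted share in percent of reads in the first, middle and last of 3 equal parts of each well-covered transcript, 1 line per replicate, with each library's background as a dotted line of the same colour. In every replicate the last part lies below the first; in Smarce1 the replicates go from 1.96% to 1.42%, from 1.86% to 1.19% and from 1.58% to 0.800%.

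The other genes of the BAF family were read in the same way. Of 22 listed as alternative, shared, PBAF or non-canonical subunits, 18 were in the tables and 15 had testable cytosines. These 3628 cytosines held 3 candidates (0.0827%) and 27 with an adjusted p below 0.05 (0.744%), of which 21 belonged to Actb, the actin subunit, at a median depth of 574.5 reads. The candidates lay in Smarcd2, Actb and Bcl7c. Smarcd2, the relative of Smarcd1, had 3 of 16, 2 of 21 and 3 of 14 reads unconverted at position 388, a mean of 16.6% ± 6.25 (SD, n = 3). Bcl7c, a small subunit of unclear function, had 2 of 22, 4 of 18 and 2 of 23 at position 595 (13.3% ± 7.70), and Actb had 3 of 16, 2 of 10 and 1 of 11 at position 1744 (15.9% ± 5.97), far below its depth elsewhere. None of these 3 cytosines had 20 reads in every library. Their testable neighbours within 10 nt had 2.19% ± 1.48 in Smarcd2, 1.55% ± 0.124 in Bcl7c and 6.67% ± 1.92 in Actb (SD, n = 3). Over the whole of Actb the share was 1.34% ± 0.0477.

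By gene, Bcl7c (log2 ratio 0.44 ± 0.10 SE, adjusted p = 0.00218, limma) and Smarcd2 (0.32 ± 0.10, adjusted p = 0.0366, limma) were above the background in all 3 libraries. Smarcd2 stood at 2.09%, 1.52% and 1.86% in replicates 1, 2 and 3, while its paralogue Smarcd1 stood below the background in each. Smarcd2 was listed only from position 35 to 543, with 104 testable cytosines, and Smarcd1 from 11 to 3082, with 464. Their values thus cover unlike parts of the mRNAs and are no comparison of the paralogues. Actb (-0.13 ± 0.01, adjusted p = 2.61e-11, limma) and Arid2, the PBAF relative of Arid1a (-0.12 ± 0.04, adjusted p = 0.0349, limma), were below it. Smarca2, the ATPase that the stem cell complex lacks, had 70 listed cytosines and none testable. It has 3 protein-coding models in RefSeq, and, as for Smarca4, its sparse listing is no measure of its expression.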

How the data were processed

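Poly(A)-selected RNA was fragmented, converted with bisulfite and sequenced as 100 bp paired-end reads after 12 cycles of PCR, per the labels' protocols. BSMAP and build mm9 are named in the submitters' processing notes; their versions, the annotation and the counting step have no entry in any source used here. The deposited coverage is a raw read count per cytosine of a RefSeq transcript, at least 3 in every row. The deposited unconverted share is a fraction of that count, and their product was whole within 1e-06 at 100% of cytosines. Accessions without version were matched to symbols with the RefSeq table of GRCm38.p6 (14932 of 15021).

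Calls and the limma fits were made over all cytosines or genes, with Python 3.11.15, scipy 1.17.1, R 4.3.3 and limma 3.58.1, and were checked on simulated data. All 9 members were named, with each cytosine of adjusted p below 0.05 or otherwise the strongest, and other BAF genes with a candidate; names in the start-to-end and library comparisons were chosen after their values were seen. The members and lists were chosen with earlier results of these data known. With 1 group, no genes of like pattern were sought. Alternatives concern coverage, level, error model, background, pseudocount and single libraries.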

Additional observations from a re-analysis of the deposited data

How the results depend on the processing

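No paired analysis was possible because there is 1 group. Candidates in the members numbered 1 in the main test and at coverage minimums of 5 and 20 reads, 0 with the highest of the 3 p-values, the beta-binomial, a background raised 1.5 times or a share minimum of 20%, and 5 at a share minimum of 5%. Leaving out 1 library gave 0 to 2, none of them Arid1a 318: without replicate 1 these were Arid1a 292 and Arid1a 5014, and without replicate 3 Smarcc1 912. Member cytosines with an adjusted p below 0.05 numbered 14; the alternatives gave 16 of 2338 at a coverage minimum of 20 (0.869% of all cytosines called), 12 of 4481 at 5 (0.315%), 3 with the beta-binomial (0.159%), and 0 with the highest p-value (0.0403%) or the raised background (0.117%). Without 1 library they numbered 5 to 12, of which 4 to 10 were among the 14 (9 without replicate 1 and 5 without replicate 2). Candidates in the other BAF genes went from 3 to 0 at a coverage minimum of 20, with the highest p-value, the raised background or a share minimum of 20%, and to 10 at 5%; without 1 library they numbered 1 to 2. The members' coverage share was 0.179%, or 0.186% over testable cytosines only. Of the gene-level calls, Smarcd1 was lost without replicate 2, so that 0 to 1 members were called when a library was left out; it was kept in the other alternatives run. The log2 ratio of Arid1a, never called, turned from 0.02 to -0.0014 without the strongest cytosine of each gene. For the ends of the transcripts, where all alternatives were chosen after seeing the data, 2 members were called, 1 with 2 parts in place of 3, 1 without cytosines of adjusted p below 0.05, and 0 to 1 without 1 library (Actl6a without replicate 2, Smarcc1 without replicate 3); with 2 parts the log2 ratio of Smarce1 was -0.21. Where no cause is given, the cause was not tested. Depth limits all of this most in Smarca4, Smarcb1, Smarcc2 and Dpf2.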
